A study of Mus musculus with 30 samples.

Results

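The genes described here are 31 mouse genes for the synthesis of cholesterol and fatty acids and for its control by the SREBP transcription factors. They were chosen by name: a gene was taken as measured where a probe set named it and no other gene, and of several probe sets for a gene the brightest on average was used. By this rule 30 of the 31 genes were measured, out of 19938 genes in all. They comprise 17 enzymes of the path from acetoacetyl-CoA to cholesterol, 6 genes of its control and of sterol transport, and 7 genes of fatty acid synthesis. Acat2, which makes acetoacetyl-CoA, had no probe set of its own and was not analysed here.

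RNA was measured on 30 Affymetrix arrays in 10 groups of 3 biological replicates, as the labels call them. On 18 arrays labelled without amplification lay mouse embryonic stem (ES) cells and the induced pluripotent stem cell lines ST5 and ST8, each at day 0 (undifferentiated, sorted as Sox2bright) and at day 5 of endoderm differentiation (sorted as ckit+/Sox2dim). All of these cells had the C57BL/6x129SvJae background, and ST5 and ST8 are 1 line each, so a difference between them is a difference between 2 lines. A further 12 arrays, labelled after amplification, held ES cells of both days beside sorted cells of Swiss webster embryos at E8.25, gated as ENDM1+/Epcam+/SSlo (foregut endoderm) or as Epcam+ and negative for ENDM1 (the comparison population). The sorting gates changed from day 0 to day 5, so the effect of differentiation cannot be told apart from that of the gate, and strain, extraction kit and tissue cannot be told apart between embryo and ES cells. In such bulk samples fewer cells of a type and less RNA per cell cannot be told apart.

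Cells build cholesterol from acetyl-CoA through mevalonate, isoprenoid units, squalene and lanosterol. SREBP-2, encoded by Srebf2, drives the genes of this path, and SREBP-1, encoded by Srebf1, drives those of fatty acid synthesis. Scap escorts both from the endoplasmic reticulum to the Golgi, where proteases release the active factor, and the Insig proteins hold Scap back when sterols are plentiful, so that the genes fall when the cell has enough cholesterol. Cholesterol in the early embryo is needed for membranes and for Hedgehog signalling, and the visceral endoderm supplies lipids to the embryo.

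SREBP binds sterol regulatory elements and commonly acts with NF-Y, which binds CCAAT boxes, and with Sp1, which binds GC boxes. The proximal promoter sequences of RefSeq (build GRCm38.p6) were matched for 25 of the 31 genes and searched over the 250 bases before the start site, on both strands. The element TCACNCCAC was present in 1 of the 25 genes, Hmgcs1, and in 1.05% of all 32851 promoters. CCAAT was present in 20 of 25 genes (21 of their 33 promoters) and in 33.8% of all promoters, and GGGCGG in 21 of 25 genes (24 of 33 promoters) and in 32.7% of all promoters. No matches of different motifs overlapped. The stretches below belong to genes whose levels are described further on: enzymes that differed between embryo and ES cells, Sc5d among them, which also rose in every line, and the regulator Insig1. Capitals mark the TCACNCCAC match and the CCAAT matches, the latter written ATTGG where they lie on the other strand, and each stretch runs 5′ to 3′ on the strand of the gene.
Hmgcs1 chr13:119690101-119690325 (+ strand): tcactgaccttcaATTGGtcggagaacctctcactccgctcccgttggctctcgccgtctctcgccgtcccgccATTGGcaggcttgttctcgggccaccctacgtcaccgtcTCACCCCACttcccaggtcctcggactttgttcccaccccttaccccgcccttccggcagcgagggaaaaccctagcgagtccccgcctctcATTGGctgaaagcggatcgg
Idi1 chr13:8885546-8885605 (+ strand): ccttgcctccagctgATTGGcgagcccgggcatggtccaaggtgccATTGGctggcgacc
Cyp51 chr5:4104707-4104741 (- strand): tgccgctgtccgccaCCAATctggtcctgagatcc
Msmo1 chr8:64733614-64733753 (- strand): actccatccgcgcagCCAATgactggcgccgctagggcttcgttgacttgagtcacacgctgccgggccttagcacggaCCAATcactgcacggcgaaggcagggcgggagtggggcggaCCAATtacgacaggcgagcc
Sc5d chr9:42264305-42264339 (- strand): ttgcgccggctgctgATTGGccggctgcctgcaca
Insig1 chr5:28071181-28071215 (+ strand): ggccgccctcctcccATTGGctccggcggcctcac
The Hmgcs1 element, TCACCCCAC, lies at -137 to -129 from the start site, between CCAAT matches. A match is a description of the letters and not a bound site, and no binding was measured here. Other forms of the element and bases further from the start site were not searched. A gene without a match may therefore still carry an element.

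Values are log2 expression levels from RMA, so a difference of 1 is a doubling. Levels are compared between arrays of the same labelling, and between genes only in the percentiles given here. Medians over all probe sets ranged from 5.5 to 5.57 on the unamplified and from 5.69 to 5.74 on the amplified arrays. The 30 genes had group means between the 37.6th and the 99.7th percentile of all genes. The lowest was Acss2 on the amplified arrays, where its group means of 5.35 to 5.53 lay below the medians of the arrays. A gene was called changed where limma's moderated test gave an adjusted p below 0.05 (Benjamini-Hochberg, 19938 genes), and errors are standard errors of that fit (3 arrays against 3) unless marked SD. The number of arrays limits the precision. Shares of all genes given beside counts are for the adjusted p, and no such share was counted at an unadjusted p. The share of all genes whose arrays did not overlap was not counted either. Close relatives such as Scd1 and Scd2 may share signal between their probe sets.

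A pair of day 5 arrays stood apart from the others of their groups in the genes that mark the stage of differentiation. On ES day 5 replicate 1 Pou5f1, a core pluripotency factor, was at 8.41, against 9.64 and 9.61 on replicates 2 and 3, and Sox17, an endoderm factor, was at 9.35 against 7.15 and 7.28. On ST8 day 5 replicate 2 Pou5f1 was at 7.25, against 10.48 and 10.43. ES day 5 replicate 1 was also the highest array of its group for 28 of the 30 lipid genes, as it was for 35.8% of all genes. The amplified ES day 5 replicate 1 was likewise the highest for 28 of 30 (39.6% of all genes), with Pou5f1 at 7.72 against 8.92 and 8.82. The labels do not say whether amplified and unamplified arrays of 1 number carry the same RNA. ST8 day 5 replicate 2 was the highest for 18 of 30 (41.2% of all genes). For some of the results that rest on these arrays, values without them are given as well. Shares of all genes called were counted only in the fits with all arrays.

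**Figure D1:**
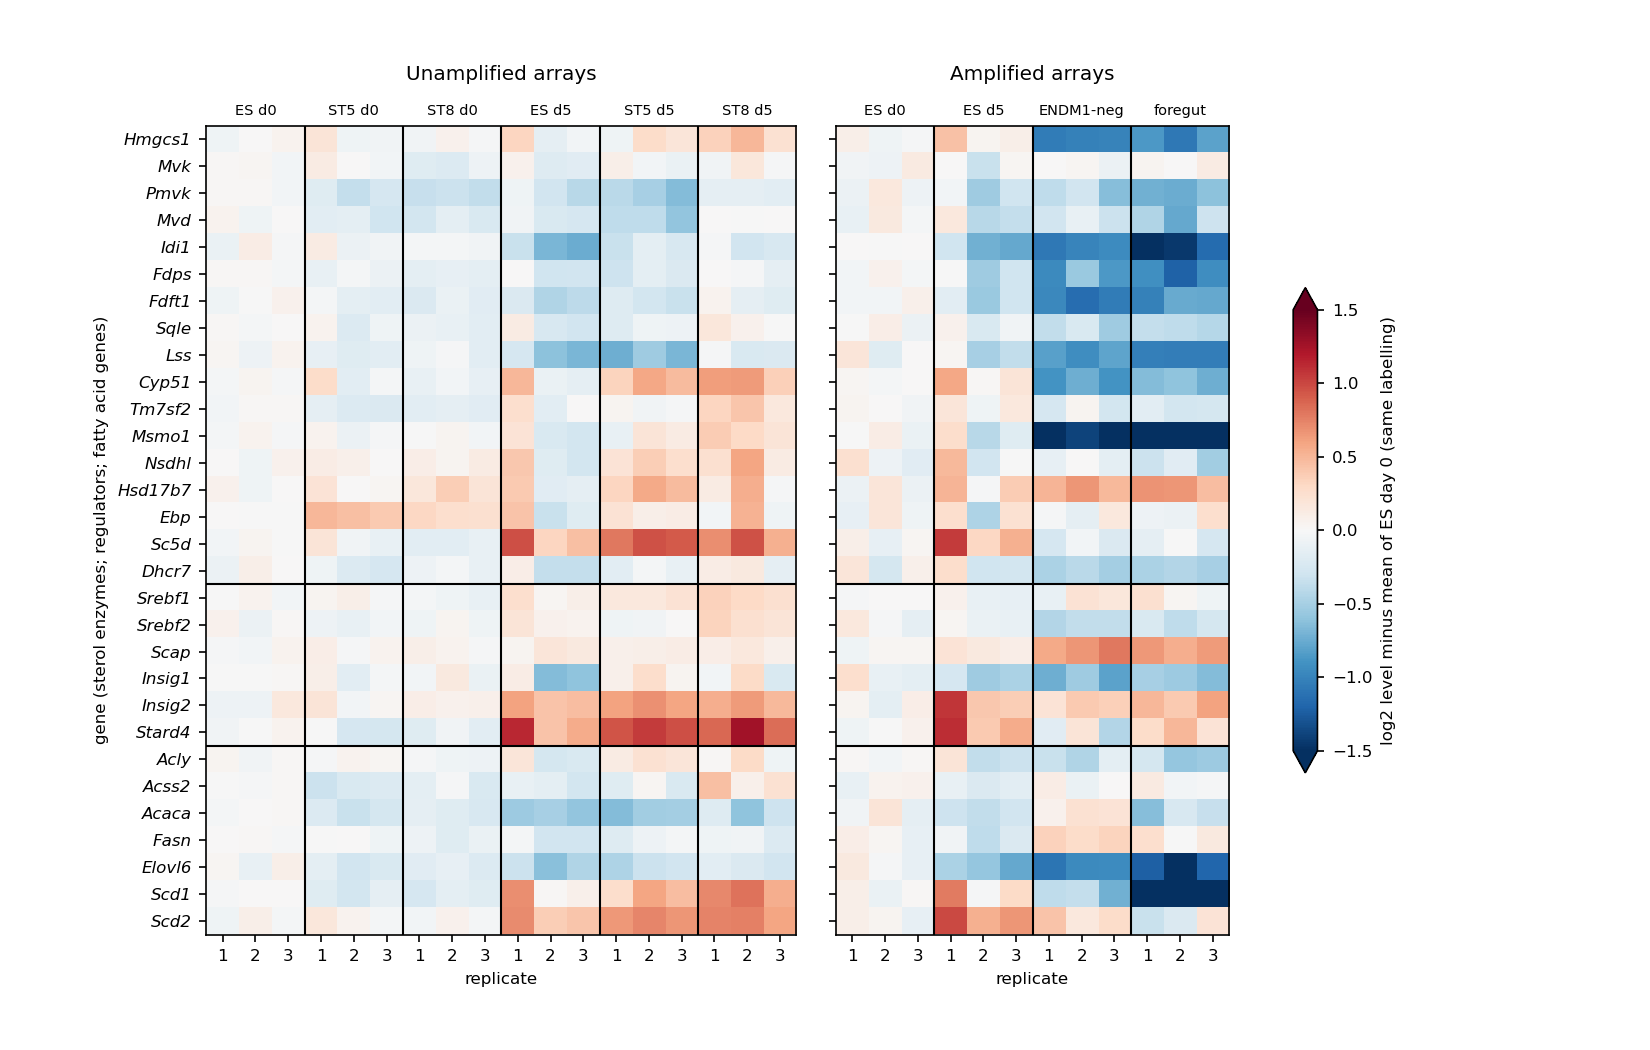
Log2 level of each of the 30 measured genes on each of the 30 arrays (columns, by group and replicate) minus the mean of the ES day 0 arrays of the same labelling, with sterol enzymes, regulators and fatty acid genes separated by lines; the colour scale ends at 1.5 in either direction. Sc5d, Insig2, Stard4 and Scd2 are above ES day 0 on all day 5 arrays, and Msmo1 and Scd1 are lowest on the embryo arrays.

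Day 5 against day 0 asks how these genes differ between sorted endoderm and undifferentiated cells. In all 3 lines 4 genes rose: Sc5d, Insig2, Stard4 and Scd2, with 13.8% of all genes called higher in all 3. None was called lower in all 3 lines (14.3% of all genes were), although 8 genes were called lower in ES cells or ST5, Lss, Pmvk and Acaca in both of these. A further 9 genes, Mvk, Fdps, Sqle, Nsdhl, Ebp and Dhcr7 among the sterol enzymes, Insig1, Scap and Acly, were called in no line. In ES cells 4 of the 30 genes rose and 7 fell, where 18.9% of all genes were called higher and 19.7% lower (38.6% either way). In ST5 7 rose and 4 fell (47.9% of all genes called either way, 23.2% higher and 24.8% lower). In ST8 13 rose and 0 fell (40.5% either way, 21% higher and 19.5% lower), and at an unadjusted p under 0.05 limma counted 15 higher and 1 lower. The median difference of the 30 genes was -0.10, 0.08 and 0.20 in ES, ST5 and ST8 cells, against 0.022, -0.038 and -0.007 over all genes.

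Stard4, which carries cholesterol between membranes, had the largest rise. It was at 8.07, 8.12 and 8.18 on the ES day 0 arrays and at 9.26, 8.55 and 8.68 at day 5. ST5 had 8.12, 7.87 and 7.86 at day 0 and 9.07, 9.17 and 9.09 at day 5, and ST8 had 7.94, 8.07 and 7.96 and then 8.98, 9.38 and 8.96. Every day 5 array was above every day 0 array in each line, and Stard4 rose by 0.71 ± 0.15 in ES cells (adjusted p = 0.000935), 1.16 ± 0.15 for ST5 (5e-06) and 1.12 ± 0.15 for ST8 (1.1e-05). Without ES day 5 replicate 1 the ES difference was 0.49 (adjusted p = 0.00263), and without ST8 day 5 replicate 2 the ST8 difference was 0.98 (4.94e-05).

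Sc5d, the desaturase that introduces a double bond into the sterol ring late in the path, was the only sterol enzyme called higher in all 3 lines. ES cells had 7.93, 8.02 and 7.97 at day 0 and 8.94, 8.30 and 8.43 at day 5. The other lines went from 8.17, 7.92 and 7.86 to 8.76, 8.93 and 8.89 in ST5 and from 7.81, 7.81 and 7.86 to 8.67, 8.93 and 8.51 in ST8. The arrays of the 2 days did not overlap, with differences of 0.58 ± 0.14 (adjusted p = 0.00258), 0.87 ± 0.14 (5e-05) and 0.88 ± 0.14 (7e-05) in ES, ST5 and ST8. Without ES day 5 replicate 1 the ES difference was 0.39 (adjusted p = 0.0113).

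Insig2, an endoplasmic reticulum protein that retains Scap, rose in each line. It was at 7.50, 7.50 and 7.73 in ES cells at day 0 and at 8.18, 8.01 and 8.04 at day 5. In ST5 it was at 7.77, 7.54 and 7.61 and then at 8.18, 8.26 and 8.17, and in ST8 at 7.68, 7.64 and 7.65 and then at 8.12, 8.22 and 8.06. The days did not overlap in any line, and the differences were 0.50 ± 0.08 (adjusted p = 7.2e-05), 0.57 ± 0.08 (1.3e-05) and 0.48 ± 0.08 (0.000104). With any single array left out Insig2 kept its calls, and its ES difference was at least 0.43. Its relative Insig1, itself a well-known SREBP target, was not called in any line: it was at 10.01, 10.01 and 10.03 in ES cells at day 0 and at 10.13, 9.37 and 9.41 at day 5. Only replicates 2 and 3 of ES day 5 lay below day 0, and without replicate 1 Insig1 was lower by -0.62 (adjusted p = 0.00078). In ST5 it went from 10.10, 9.86 and 9.99 to 10.09, 10.28 and 10.06, and in ST8 from 9.98, 10.16 and 9.92 to 9.97, 10.30 and 9.79, and in both lines the days overlapped.

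Scd2 and Scd1, desaturases that turn saturated into monounsaturated fatty acids, were the fatty acid genes called higher in more than 1 line. Acss2 was also called higher in ST8 and was not called in ES cells or ST5. Scd2 was at 10.76, 10.91 and 10.79 in ES cells at day 0 and at 11.53, 11.19 and 11.24 at day 5. ST5 went from 10.99, 10.87 and 10.79 to 11.47, 11.55 and 11.48, and ST8 from 10.78, 10.89 and 10.79 to 11.56, 11.58 and 11.41. The days did not overlap, and the rises were 0.49 ± 0.09 (adjusted p = 0.000218), 0.62 ± 0.09 (1.5e-05) and 0.70 ± 0.09 (6e-06). With any single array left out Scd2 kept its calls, and its ES difference was at least 0.39. Scd1 rose in ST5 by 0.64 ± 0.14 (adjusted p = 0.000878), from 9.28, 9.18 and 9.32 to 9.72, 10.05 and 9.92, and in ST8 by 0.89 ± 0.14 (5.3e-05), from 9.21, 9.31 and 9.28 to 10.18, 10.28 and 10.01. In ES cells Scd1 was at 9.44, 9.47 and 9.47 and then at 10.16, 9.48 and 9.54. There replicates 2 and 3 lay just above day 0 and replicate 1 well above it, and the difference of 0.27 ± 0.14 was not called.

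**Figure D2:**
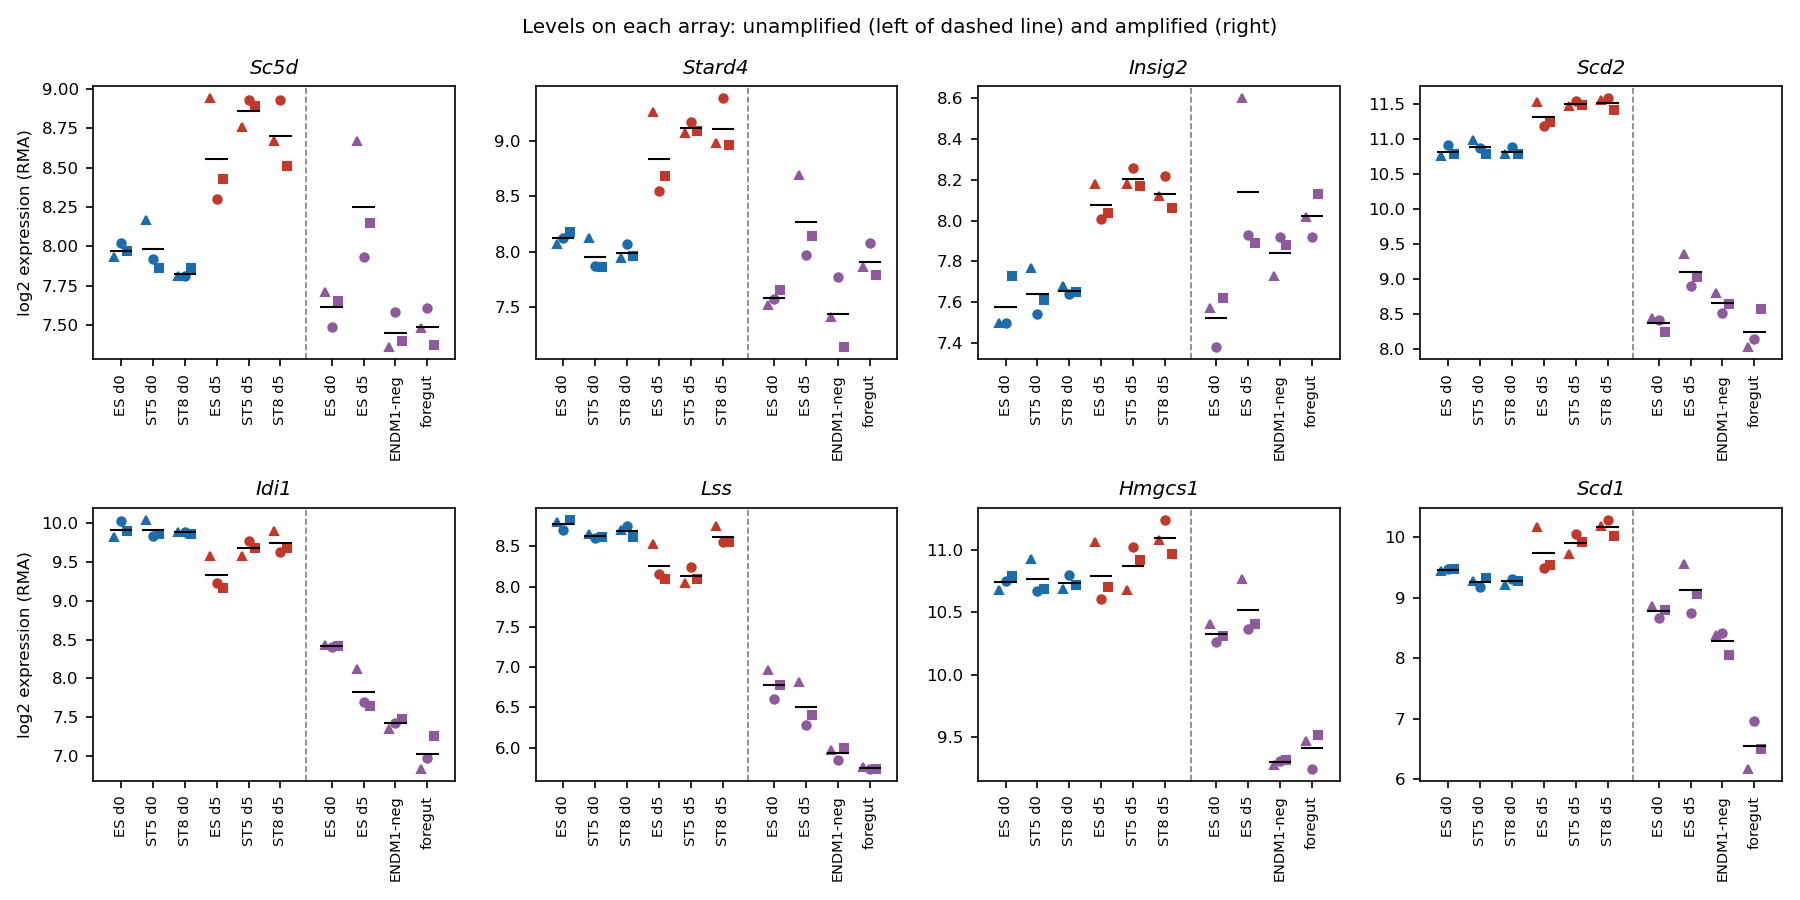
Log2 level of 8 genes on every array, by group, with unamplified arrays left and amplified arrays right of the dashed line; the bar is the group mean and triangle, circle and square are replicates 1, 2 and 3. Stard4, Sc5d, Insig2 and Scd2 are higher at day 5 than at day 0 in every line, and Hmgcs1 and Scd1 are lowest on the embryo arrays.

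Of the 17 sterol enzymes 4 fell in ES cells, namely Idi1, Lss, Fdft1 and Pmvk, and 12 were not called. Idi1, which isomerises the isoprenoid unit, was at 9.82, 10.03 and 9.90 at day 0 and at 9.58, 9.23 and 9.17 at day 5. The fall was by 0.59 (SE 0.10; adjusted p = 0.000212), to 66.3% of the day 0 level. Its second probe set gave -0.58. Lss, the cyclase that forms lanosterol, was at 8.81, 8.70 and 8.83 and then at 8.53, 8.16 and 8.10 (-0.52 ± 0.10, adjusted p = 0.000465). In ST5 Lss was at 8.66, 8.60 and 8.62 and then at a mean of 8.13 (SD 0.1, n = 3), with the days apart (-0.50 ± 0.10, adjusted p = 0.000466). In ST8 it was at 8.71, 8.76 and 8.62 and then at 8.76, 8.55 and 8.56, with the days overlapping. Fdft1, the squalene synthase, fell in ES cells by 0.35 (SE 0.08, adjusted p = 0.00161), and Pmvk, the phosphomevalonate kinase, by 0.26 (SE 0.08, 0.0207). The Pmvk call did not hold when ES day 0 replicate 1 or 2 or ES day 5 replicate 2 or 3 was left out (adjusted p from 0.0557 to 0.122).

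Acaca, the carboxylase that makes malonyl-CoA for fatty acid synthesis, was at 8.42, 8.46 and 8.47 in ES cells at day 0 and at 7.91, 7.95 and 7.86 at day 5. This was a fall by 0.54 (SE 0.08, adjusted p = 6.23e-05), with -0.70 from its second probe set. In ST5 it went from 8.24, 8.12 and 8.19 to 7.80, 7.93 and 7.94, a fall by 0.30 (SE 0.08, adjusted p = 0.00691). Elovl6, which lengthens the products of fatty acid synthase, fell in ES cells by 0.46 (SE 0.08, adjusted p = 0.000237). Fasn, the fatty acid synthase, fell in ES cells by 0.21 (SE 0.07, adjusted p = 0.0378), from 9.49, 9.51 and 9.47 to 9.46, 9.20 and 9.20. The Fasn call did not hold when any ES day 0 array or ES day 5 replicate 2 or 3 was left out (adjusted p from 0.0675 to 0.151) and with a further quantile normalization (0.117). Fasn was at 9.48, 9.50 and 9.43 in ST5 and then at 9.30, 9.41 and 9.46, and at 9.41, 9.31 and 9.39 in ST8 and then at 9.42, 9.44 and 9.28, with overlap in both.

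Some sterol enzymes and both SREBP genes rose in ST8. Cyp51, the lanosterol demethylase, rose by 0.63 ± 0.14 in ST8 (adjusted p = 0.00193), from 8.41, 8.48 and 8.39 to 9.14, 9.15 and 8.87, and by 0.43 ± 0.14 in ST5 (0.0189), from 8.79, 8.36 and 8.49 to 8.85, 9.10 and 8.99. The ST5 call was lost without ST5 day 0 replicate 2 or 3 or ST5 day 5 replicate 2 (adjusted p = 0.0967, 0.0595 and 0.0755). Tm7sf2, a sterol reductase, rose in ST8 by 0.46 ± 0.09 (0.000432), and Acss2, which makes acetyl-CoA from acetate, by 0.38 ± 0.09 (0.00354). Hmgcs1, the synthase that commits acetyl units to mevalonate, was at 10.69, 10.80 and 10.72 in ST8 at day 0 and at 11.08, 11.24 and 10.97 at day 5 (0.36 ± 0.11, adjusted p = 0.0187). Without ST8 day 5 replicate 2 the Hmgcs1 difference was 0.29 (adjusted p = 0.0799), and the call was also lost without ST8 day 0 replicate 1 or 3 (0.0602 and 0.052). Hmgcs1 in ES cells was at 10.68, 10.75 and 10.79 and then at 11.06, 10.61 and 10.70, and in ST5 at 10.93, 10.67 and 10.69 and then at 10.68, 11.02 and 10.92, with overlapping days. The rises of Msmo1, a sterol methyl oxidase (0.30 ± 0.11, adjusted p = 0.0349), and of Mvd, the mevalonate diphosphate decarboxylase (0.22 ± 0.07, 0.0269), were each lost without single ST8 arrays. Msmo1 was lost when any single day 0 array, day 5 replicate 1 or day 5 replicate 2 was left out (adjusted p from 0.0553 to 0.117), and Mvd without replicate 1 or 3 of either day (0.0588 to 0.0992).

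ST5 had 3 more calls at day 5: Hsd17b7, a sterol keto reductase, rose by 0.38 ± 0.15 (adjusted p = 0.041), and Pmvk and Mvd were lower by -0.25 ± 0.08 (0.0192) and -0.25 ± 0.07 (0.0111). All 3 were lost when single arrays were left out: Hsd17b7 without ST5 day 0 replicate 2 or 3 or day 5 replicate 2 or 3 (adjusted p from 0.0895 to 0.134), Pmvk without day 0 replicate 1 or 3 or day 5 replicate 3 (0.0502 to 0.103), and Mvd without day 5 replicate 3 (0.074).

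Srebf2 was at 9.45, 9.55 and 9.45 in ST8 at day 0 and at 9.85, 9.75 and 9.71 at day 5 (0.28 ± 0.06, adjusted p = 0.00161). Srebf1 went from 7.71, 7.67 and 7.63 to 8.08, 8.03 and 7.98 (0.36 ± 0.06, adjusted p = 0.000224). In both genes every day 5 array was above every day 0 array in ST8. In ES cells Srebf2 was at 9.58, 9.43 and 9.53 and then at 9.71, 9.58 and 9.57, and Srebf1 at 7.73, 7.79 and 7.69 and then at 7.99, 7.77 and 7.83, and neither was called. In ST5 Srebf2 was at 9.44, 9.40 and 9.47 and then at 9.45, 9.46 and 9.52, and Srebf1 at 7.78, 7.82 and 7.72 and then at 7.89, 7.90 and 7.95, again without a call. Scap was at 7.50, 7.47 and 7.57 in ES cells and then at 7.56, 7.69 and 7.66, at 7.61, 7.50 and 7.57 in ST5 and then at 7.59, 7.60 and 7.63, and at 7.60, 7.57 and 7.49 in ST8 and then at 7.61, 7.67 and 7.59. Its differences of 0.05 to 0.12 were not called. Sqle, the squalene epoxidase, was at 9.18, 9.13 and 9.17 in ES cells and then at 9.28, 8.92 and 8.87, at 9.21, 8.95 and 9.09 in ST5 and then at 8.97, 9.10 and 9.08, and at 9.07, 9.05 and 9.0 in ST8 and then at 9.33, 9.23 and 9.16, and it was not called in any line.

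**Figure D3:**
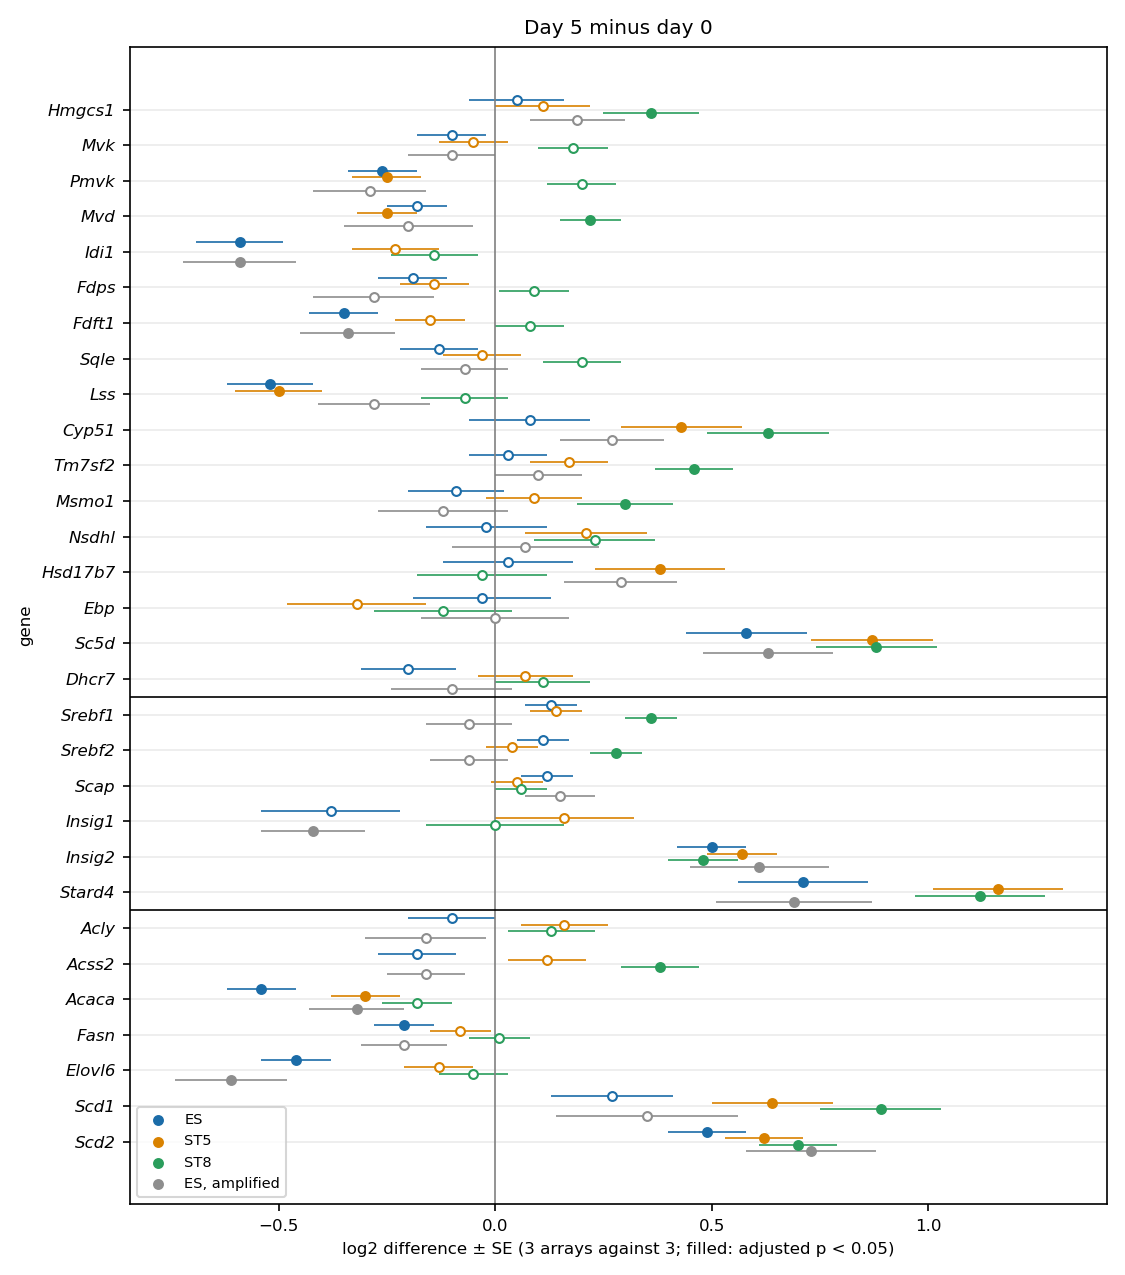
Log2 difference of day 5 minus day 0 for each of the 30 genes, with the standard error of the fit, in ES cells, ST5 and ST8 (unamplified) and in ES cells on amplified arrays; filled points were called at an adjusted p under 0.05. Sc5d, Insig2, Stard4 and Scd2 are filled and above 0 in all 4 sets, and the points below 0 that are filled belong to ES cells and ST5. The labels do not say whether both sets of ES cells carry the same RNA.

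Other lists of cell types moved over the same interval. Of 18 measured fibroblast markers, 14, 16 and 15 fell in ES, ST5 and ST8 cells, and in ES cells their mean level on single arrays was between 7.34 and 7.58 at day 0 and between 5.7 and 6.21 at day 5. Cell cycle genes fell in 17, 17 and 14 of 19 cases. Definitive endoderm markers rose in 15, 16 and 16 of 17 cases and pluripotency genes fell in 19, 20 and 20 of 20. Visceral endoderm markers rose in 7, 9 and 7 of 15 cases, heart mesoderm genes in 2 of 11 in each line, endothelial genes in 2, 2 and 1 of 10, ectoderm genes in 3, 3 and 2 of 13, and blood genes in 0, 1 and 0 of 8. Falls in these lists numbered 2 in each line for visceral endoderm, 0, 1 and 0 for heart mesoderm, 2, 3 and 3 for endothelium, 3, 6 and 2 for ectoderm and 0 in each line for blood. Over all genes 18.9%, 23.2% and 21% were called higher and 19.7%, 24.8% and 19.5% lower. Their part in the differences of the lipid genes was not tested.

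Leaving out ES day 5 replicate 1 changed the ES count more than leaving out any other ES array. The number of genes called in ES cells was then 18, of which 4 were higher and 14 lower, against 4 and 7 with all arrays, and it ranged from 9 to 18 when each array was left out in turn. Insig1, Lss, Idi1, Dhcr7, Fdps, Sqle, Msmo1, Mvd and Acly were all called lower then, for instance Idi1 by -0.72 (adjusted p = 1.72e-05) and Lss by -0.65 (1.34e-05). Dhcr7, the last reductase of the path, was at 8.66 on replicate 1 and at 8.20 on both other day 5 arrays, and at 8.47, 8.64 and 8.56 at day 0. In ST8 10 to 12 genes were called when single arrays were left out, and in ST5 8 to 11. The share of all genes called without these arrays was not counted.

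The amplified arrays also hold ES cells at both days. The labels do not say whether their RNA is that of the unamplified arrays, so they cannot be counted as an independent repeat. There 4 genes rose and 5 fell, with 26.9% of all genes called (13% higher, 13.8% lower). Stard4 was at 7.52, 7.57 and 7.65 at day 0 and at 8.69, 7.97 and 8.14 at day 5 (0.69 ± 0.18, adjusted p = 0.0118). Sc5d went from 7.71, 7.49 and 7.65 to 8.67, 7.93 and 8.15 (0.63 ± 0.15, adjusted p = 0.00762), Insig2 from 7.57, 7.38 and 7.62 to 8.60, 7.93 and 7.89 (0.61 ± 0.16, 0.00987), and Scd2 from 8.45, 8.41 and 8.24 to 9.36, 8.90 and 9.03 (0.73 ± 0.15, 0.00232). In all 4 genes the days did not overlap, and the calls held under every alternative, with any single array left out among them. The smallest differences were then 0.47, 0.42, 0.38 and 0.6 for Stard4, Sc5d, Insig2 and Scd2. Idi1 was at 8.43, 8.41 and 8.42 and then at 8.12, 7.70 and 7.65 (-0.59 ± 0.13, adjusted p = 0.00348), and Elovl6 at 9.55, 9.38 and 9.28 and then at 8.93, 8.82 and 8.63 (-0.61 ± 0.13, 0.00272). Insig1 was at 9.14, 8.77 and 8.74 and then at 8.63, 8.35 and 8.41 (-0.42 ± 0.12, adjusted p = 0.0182). The Insig1 call did not hold when ES day 0 replicate 1 (adjusted p = 0.0819) or ES day 5 replicate 2 or 3 (0.0704 and 0.0583) was left out. The Fdft1 fall was lost without any of 5 of the 6 arrays (all but ES day 5 replicate 1) and the Acaca fall without any of 5 (all but ES day 0 replicate 3), with adjusted p up to 0.152 and 0.203, and Acaca's second probe set differed by only -0.14. Without ES day 5 replicate 1 there were 13 calls, 4 higher and 9 lower, with no share of all genes counted for that fit.

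Between lines at day 0 hardly any lipid gene was called. ST5 against ES cells gave 0 of 30 calls (3.22% of all genes called, 1.39% higher and 1.84% lower; 6 of 30 genes at an unadjusted p under 0.05 by limma). ST8 against ST5 gave 0 as well (0.0652% of all genes, 0.0502% higher and 0.015% lower; 1 of 30 unadjusted). ST8 against ES cells gave 1 call (3.55% of all genes, 1.87% higher and 1.68% lower), Pmvk, which was at 7.39, 7.41 and 7.36 in ST8 and at 7.75, 7.75 and 7.69 in ES cells, with no overlap (-0.34 ± 0.08, adjusted p = 0.032). The Pmvk call was lost when any of the 6 arrays was left out (adjusted p from 0.0705 to 0.113). Differences of the 30 genes ranged from -0.27 to 0.45 for ST5 against ES cells and from -0.34 to 0.26 for ST8. Both comparisons use the same ES arrays.

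At day 5 most of the 30 genes had higher mean levels in the iPS lines than in ES cells, with few calls. In ST8, 29 of the 30 differences from ES cells were above 0, with a median of 0.21 (-0.015 over all genes). Acss2 was the only call (0.958% of all genes called, 0.396% higher and 0.562% lower): it was at 6.80, 6.42 and 6.57 in ST8 and at 6.23, 6.20 and 6.07 in ES cells (0.43 ± 0.09, adjusted p = 0.0387). At an unadjusted p under 0.05 limma counted 19 higher and 0 lower, a threshold at which the share of all genes was not counted. The Acss2 call did not hold when ES day 5 replicate 2 or 3 or ST8 day 5 replicate 1 or 3 was left out (adjusted p = 0.107, 0.2, 0.165 and 0.0864). Without ES day 5 replicate 1 there were 19 calls, all higher, among them Scd1 (0.65, adjusted p = 0.00144), Cyp51 (0.65, 0.00503), Msmo1 (0.54, 0.003) and Idi1 (0.54, 0.00491), and without ST8 day 5 replicate 2 there were 4. The share of all genes called in these fits was not counted. Mean levels of the definitive endoderm markers were 10.1 on ES day 5 replicate 1 and 8.97 and 8.99 on replicates 2 and 3. On ST8 day 5 replicates 1, 2 and 3 they were 9.1, 10.23 and 9.1, and the part of stage in these counts was not tested.

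ST5 against ES cells at day 5 gave 3 genes higher and 2 lower (23.3% of all genes called, 11.6% higher and 11.8% lower). The same ES arrays serve as the reference as for ST8. Insig1 was at 10.09, 10.28 and 10.06 in ST5 and at 10.13, 9.37 and 9.41 in ES cells (0.50 ± 0.16, adjusted p = 0.0371). Hsd17b7 was at 7.76, 8.01 and 7.92 against 7.83, 7.27 and 7.30 (0.43 ± 0.15, adjusted p = 0.0434), and Idi1 at 9.58, 9.77 and 9.68 against 9.58, 9.23 and 9.17 (0.35 ± 0.10, 0.0241). In these 3 genes ES day 5 replicate 1 lay within or above the ST5 arrays, while replicates 2 and 3 lay below them. Mvd was lower, at 8.07, 8.07 and 7.86 against 8.40, 8.22 and 8.20 (-0.27 ± 0.07, adjusted p = 0.0167), and Pmvk at 7.32, 7.23 and 7.08 against 7.67, 7.44 and 7.31 (-0.26 ± 0.08, 0.0353). The split of 3 higher and 2 lower became 6 and 0 with arrays shifted to a common median and 1 and 3 with a further quantile normalization. Each of the 5 calls was lost when ST5 day 5 replicate 3 was left out (adjusted p from 0.0593 to 0.142). Those of Insig1, Hsd17b7 and Idi1 were also lost without ES day 5 replicate 2 or 3 or ST5 day 5 replicate 2 (0.0892 to 0.183), and those of Insig1 and Hsd17b7 without ST5 day 5 replicate 1 (0.0755 and 0.0566). That of Pmvk was lost without ES day 5 replicate 1 or 2 or ST5 day 5 replicate 2 as well (0.127, 0.0764 and 0.0722). There were, without ES day 5 replicate 1, 14 higher and 1 lower, with no share of all genes counted for that fit. The array left out had a mean level of 10.1 over 17 definitive endoderm markers. This was near the 10.08 to 10.14 of the ST5 arrays, while the ES arrays kept were at 8.97 and 8.99. Markers of cell type and stage differed in this comparison too. In ST5, 11 of 18 fibroblast markers were lower and 0 higher, 7 of 20 pluripotency genes were lower and 3 higher, 5 of 17 definitive endoderm markers were higher and 1 lower, and 7 of 15 visceral endoderm markers were higher and 1 lower. Nanog, a pluripotency factor, differed by -2.78 and Ttr, made by visceral endoderm, by 2.79. Their part in the differences of the lipid genes was not tested.

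ST8 against ST5 at day 5 compares the lines without the ES arrays. In ST8, 6 genes were higher and 0 lower (14.6% of all genes called, 8.29% higher and 6.3% lower; at an unadjusted p under 0.05 limma counted 9 higher and 0 lower). Lss was at 8.76, 8.55 and 8.56 in ST8 and at a mean of 8.13 (SD 0.1, n = 3) in ST5 (0.49 ± 0.10, adjusted p = 0.00593). Mvd was at 8.46, 8.44 and 8.46 against 8.07, 8.07 and 7.86 (0.45 ± 0.07, adjusted p = 0.00193). Acss2 was at 6.80, 6.42 and 6.57 against 6.16, 6.37 and 6.11 (0.39 ± 0.09, adjusted p = 0.0146). Pmvk, Tm7sf2 and Srebf2 were higher by 0.37 ± 0.08, 0.31 ± 0.09 and 0.29 ± 0.06. In all 6 the arrays of the lines did not overlap, but these genes were picked by their calls on the same arrays. The calls of Lss and Mvd held when any single array was left out, but all 6 calls were lost with only the groups compared in the fit (adjusted p from 0.089 for Mvd to 0.146 for Acss2). Those of the other 4 did not: without ST8 day 5 replicate 1 Acss2, Tm7sf2 and Srebf2 were lost (adjusted p = 0.0893, 0.101 and 0.0568), and without ST5 day 5 replicate 3 Pmvk, Acss2 and Tm7sf2 were (0.052, 0.0661 and 0.0758). Acss2 and Tm7sf2 were also lost without ST5 day 5 replicate 1 (0.0573 and 0.0543), Tm7sf2 without ST5 day 5 replicate 2 (0.0822) and Acss2 without ST8 day 5 replicate 3 (0.0559). Without ST8 day 5 replicate 2 there were 8 calls, 7 higher and 1 lower, the latter Hsd17b7. No share of all genes was counted for that fit. Markers of stage differed between the lines as well. Of 19 cell cycle genes 7 were higher and 1 lower in ST8, of 20 pluripotency genes 5 were higher and 2 lower, and of 15 visceral endoderm markers 0 were higher and 3 lower. Definitive endoderm markers lay below 0 in 16 of 17 cases (median -0.57), of which 1 was called. Nanog differed by 2.76 and Ttr by -2.22. Their part in this comparison was not tested.

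Whether the lines differed in their change from day 0 to day 5 was tested directly. The response of ST8 minus that of ST5 gave 1 call (2.17% of all genes called, 1.05% higher and 1.11% lower), Mvd at 0.47 ± 0.11 (adjusted p = 0.0372). Mvd was at 8.29, 8.30 and 8.15 in ST5 at day 0 and at 8.18, 8.30 and 8.22 in ST8, so that the lines overlapped at day 0 and not at day 5, where the values are those given above. The Mvd call was lost without any of ST5 day 0 replicates 1 and 2, ST5 day 5 replicates 1, 2 and 3, ST8 day 0 replicates 1, 2 and 3 and ST8 day 5 replicates 1 and 3 (adjusted p from 0.0592 to 0.104). The responses of ST5 and of ST8 minus that of ES cells gave 0 calls each (5.58% of all genes called for ST5, 3.3% higher and 2.28% lower; 0.838% for ST8, 0.331% higher and 0.507% lower), and limma counted 5 and 16 genes, all higher, at an unadjusted p under 0.05. Both use the same ES arrays. Without ES day 5 replicate 1 there were 11 and 14 calls, all higher, with Insig1 at 0.78 for ST5 (adjusted p = 0.00614) and Scd1 at 0.84 for ST8 (0.00239). The shares of all genes called in these fits were not counted. The ES day 5 arrays kept there had the lower means of definitive endoderm markers, 8.97 and 8.99 against 10.1 on replicate 1. The part of stage in these counts was not tested.

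**Figure D4:**
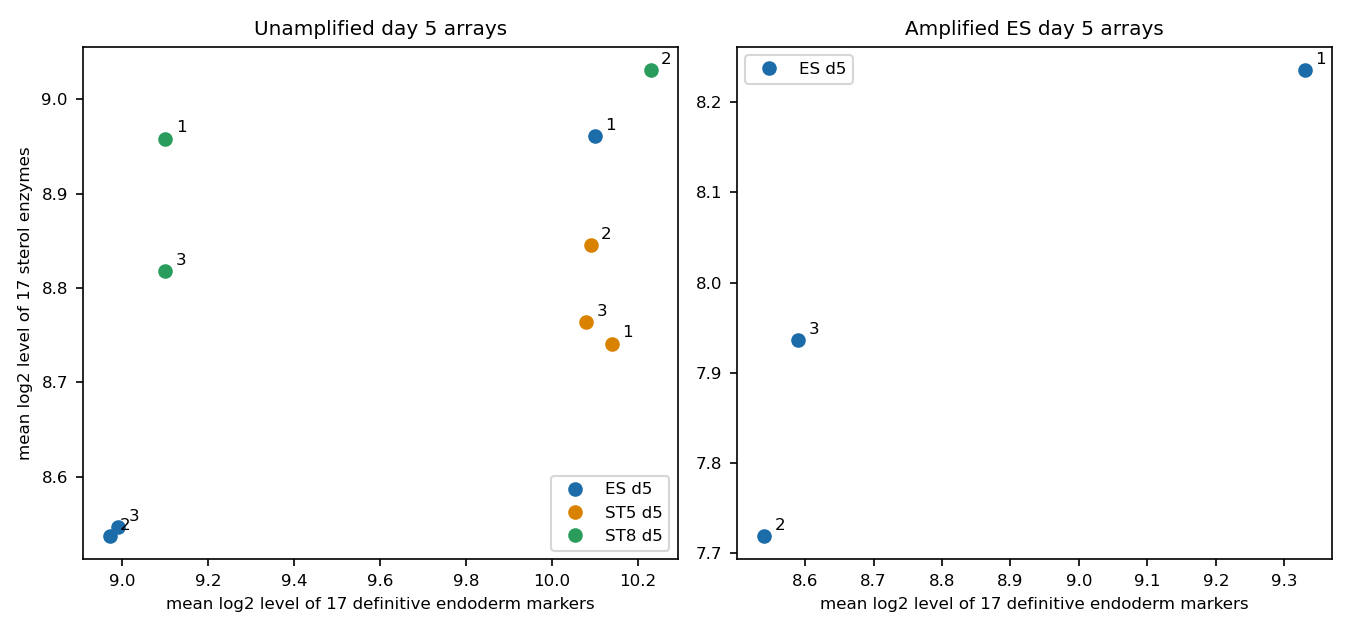
Mean log2 level of the 17 sterol enzymes against the mean of 17 definitive endoderm markers on each day 5 array, unamplified (left: ES, ST5, ST8) and amplified (right: ES), with replicate numbers beside the points. ES day 5 replicate 1 has a sterol mean of 8.96 against 8.54 and 8.55 for replicates 2 and 3, and the 3 ST5 arrays lie between 8.74 and 8.85.

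Within the ES day 5 group the sterol enzymes and the endoderm markers were highest on the same array. The mean of the 17 enzymes was 8.96 on replicate 1 and 8.54 and 8.55 on the others, and the mean of the 17 endoderm markers was 10.10 on replicate 1 and 8.97 and 8.99 on the others. On the amplified arrays the enzyme means were 8.24, 7.72 and 7.94 and the marker means 9.33, 8.54 and 8.59. In ST8 the enzyme means were 8.96, 9.03 and 8.82 and the marker means 9.10, 10.23 and 9.10, so that ST8 replicate 1 had a high enzyme mean with a low marker mean. ST5, with marker means of 10.08 to 10.14, had enzyme means of 8.74 to 8.85, near those of 8.78 to 8.80 of ES cells at day 0. No test was made over these 3 arrays a group.

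Embryo cells had lower levels of sterol enzymes than ES-derived endoderm on the amplified arrays. In foregut cells 11 of the 17 enzymes were lower than in ES cells at day 5 and 0 higher, and over all 30 genes 14 were lower and 2 higher, where 24.2% of all genes were called (14.7% higher and 9.42% lower). In ENDM1-negative embryo cells 9 of the 17 enzymes were lower and 0 higher, and over all 30 genes 14 were lower and 3 higher (26.3% of all genes called, 16.5% higher and 9.76% lower). The median difference of the 17 enzymes was -0.40 in foregut and -0.36 in ENDM1-negative cells, against 0.076 and 0.060 over all genes. Both comparisons use the same ES day 5 arrays.

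Msmo1 was at 9.40, 8.72 and 8.96 in ES cells at day 5. It was at 7.45, 7.52 and 7.40 in foregut (-1.56 ± 0.15, adjusted p = 1.8e-05) and at 7.40, 7.75 and 7.33 in ENDM1-negative cells (-1.53 ± 0.15, 1.7e-05), which is 33.8% and 34.7% of the ES level. The embryo arrays of both kinds lay below every ES array. Without ES day 5 replicate 1, the highest of its group, the differences were -1.38 and -1.34 (adjusted p = 1.02e-05 and 1.35e-05).

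Hmgcs1 was at 10.77, 10.37 and 10.41 in ES cells, at 9.47, 9.25 and 9.52 in foregut (-1.10 ± 0.11, adjusted p = 1.9e-05) and at 9.28, 9.31 and 9.32 in ENDM1-negative cells (-1.21 ± 0.11, 7e-06). Cyp51 was at 9.24, 8.68 and 8.85 in ES cells, at 8.01, 8.06 and 7.93 in foregut (-0.93 ± 0.12, 0.000164) and at 7.76, 7.93 and 7.76 in ENDM1-negative cells (-1.11 ± 0.12, 3.1e-05). For both genes the ES arrays and the embryo arrays were fully separated. Sc5d was at 8.67, 7.93 and 8.15 in ES cells, at 7.48, 7.61 and 7.37 in foregut and at 7.36, 7.58 and 7.40 in ENDM1-negative cells (-0.76 ± 0.15 and -0.81 ± 0.15, adjusted p = 0.00334 and 0.00185).

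Further enzymes were lower as well. Idi1, Lss, Fdps (the farnesyl diphosphate synthase) and Fdft1 were lower in foregut by -0.80, -0.75, -0.75 and -0.51 and in ENDM1-negative cells by -0.40, -0.56, -0.51 and -0.71. The second probe sets of Idi1 and Fdft1 gave -0.78 and -0.61 in foregut and -0.41 and -0.68 in ENDM1-negative cells. Sqle was at 9.37, 9.08 and 9.25 in ES cells, at 8.95, 8.92 and 8.87 in foregut (-0.32 ± 0.10, adjusted p = 0.0341) and at 8.93, 9.07 and 8.77 in ENDM1-negative cells (-0.30 ± 0.10, 0.0375). Pmvk (-0.40 ± 0.13, adjusted p = 0.0379) and Tm7sf2 (-0.33 ± 0.10, 0.0293) were lower in foregut. Sqle, Pmvk and Tm7sf2 lost their calls without ES day 5 replicate 1 (0.104, 0.122 and 0.0815 in foregut, 0.125 for Sqle in ENDM1-negative cells), as did Fdps and Idi1 in ENDM1-negative cells (0.0545 and 0.121). In foregut Sqle and Pmvk were also lost without ES day 5 replicate 3 or any foregut array (0.0603 to 0.101), and Tm7sf2 without ES day 5 replicate 3 or foregut replicate 2 or 3 (0.0727 to 0.0952). In ENDM1-negative cells Idi1 was lost without any embryo array of that group (0.0561 to 0.101), Fdps without its replicate 1 or 3 (0.0653 and 0.0518), and Sqle without its replicate 1 or 3 or ES day 5 replicate 3 (0.0806, 0.147 and 0.0922). The calls of Msmo1, Hmgcs1, Cyp51, Sc5d, Lss and Fdft1 held in both populations when any single array was left out. With each array left out in turn, the number of called genes over all 30 ranged from 12 to 16 in foregut and from 11 to 17 in ENDM1-negative cells. Mvk, Mvd, Nsdhl, Hsd17b7, Ebp and Dhcr7 were not called in either.

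Among the regulators Scap was higher in both embryo populations. It was at 7.41, 7.35 and 7.31 in ES cells at day 5, at 7.86, 7.75 and 7.84 in foregut (0.46 ± 0.08, adjusted p = 0.00128) and at 7.78, 7.87 and 8.0 in ENDM1-negative cells (0.52 ± 0.08, 0.000363), without overlap. Srebf2 was at 7.63, 7.50 and 7.49 in ES cells, at 7.38, 7.22 and 7.34 in foregut (not called) and at 7.16, 7.24 and 7.23 in ENDM1-negative cells (-0.33 ± 0.09, adjusted p = 0.0147), a call that did not hold when replicate 1 of either group was left out (0.0504 without that of ES day 5 and 0.0535 without the ENDM1-negative one). Srebf1, at 6.36, 6.19 and 6.18 in ES cells, 6.54, 6.33 and 6.24 in foregut and 6.19, 6.52 and 6.47 in ENDM1-negative cells, was not called. Insig1 was at 8.63, 8.35 and 8.41, at 8.39, 8.34 and 8.23 and at 8.15, 8.35 and 8.08 in these groups in turn, and Insig2 at 8.60, 7.93 and 7.89, at 8.02, 7.92 and 8.13 and at 7.73, 7.92 and 7.88. Neither Insig gene was called in either comparison. Stard4 was at 8.69, 7.97 and 8.14 in ES cells, at 7.86, 8.08 and 7.79 in foregut (not called) and at 7.41, 7.77 and 7.14 in ENDM1-negative cells (-0.82 ± 0.18, adjusted p = 0.00446).

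Scd1 had the largest difference of the 30 genes. It was at 9.55, 8.75 and 9.06 in ES cells at day 5, at 8.39, 8.42 and 8.05 in ENDM1-negative cells and at 6.18, 6.97 and 6.51 in foregut. Foregut was below ES day 5 by -2.57 ± 0.21 (adjusted p = 4e-06, 16.9% of the ES level) and below ENDM1-negative cells by -1.74 ± 0.21 (0.000261, 30%), and the 3 groups did not overlap. ENDM1-negative cells were below ES cells by -0.83 ± 0.21 (adjusted p = 0.00984). Scd2 was at 9.36, 8.90 and 9.03 in ES cells, at 8.80, 8.52 and 8.64 in ENDM1-negative cells (-0.44 ± 0.15, adjusted p = 0.0416) and at 8.03, 8.15 and 8.57 in foregut (-0.85 ± 0.15, 0.00134). The Scd2 call in ENDM1-negative cells was lost without ENDM1-negative replicate 2 or 3 or ES day 5 replicate 1 or 3 (adjusted p = 0.135, 0.0933, 0.145 and 0.0688). Elovl6 was lower in both populations, by -0.74 ± 0.13 in foregut and by -0.39 ± 0.13 in ENDM1-negative cells (adjusted p = 0.00109 and 0.0367), the second of which was lost without any ENDM1-negative array or without ES day 5 replicate 1 or 2 (0.062 to 0.116).

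Fasn in both populations and Acaca in ENDM1-negative cells were higher than in ES cells. Fasn was at 7.28, 6.95 and 7.12 in ES cells, at 7.68, 7.61 and 7.67 in ENDM1-negative cells (0.54 ± 0.10, adjusted p = 0.0017) and at 7.59, 7.33 and 7.48 in foregut (0.35 ± 0.10, 0.0228). The foregut call of Fasn was lost without ES day 5 replicate 2 or 3 or foregut replicate 1 or 3 (adjusted p = 0.0959, 0.0573, 0.0963 and 0.0639) and with arrays shifted to a common median (0.0521). Acaca was at 8.04, 7.98 and 8.06 in ES cells, at 8.41, 8.58 and 8.55 in ENDM1-negative cells (0.49 ± 0.11, adjusted p = 0.00612; 0.26 from its second probe set) and at 7.71, 8.11 and 8.0 in foregut. Foregut was below ENDM1-negative cells in Acaca by -0.57 ± 0.11 (adjusted p = 0.0075; -0.45 from the second probe set), without overlap.

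**Figure D5:**
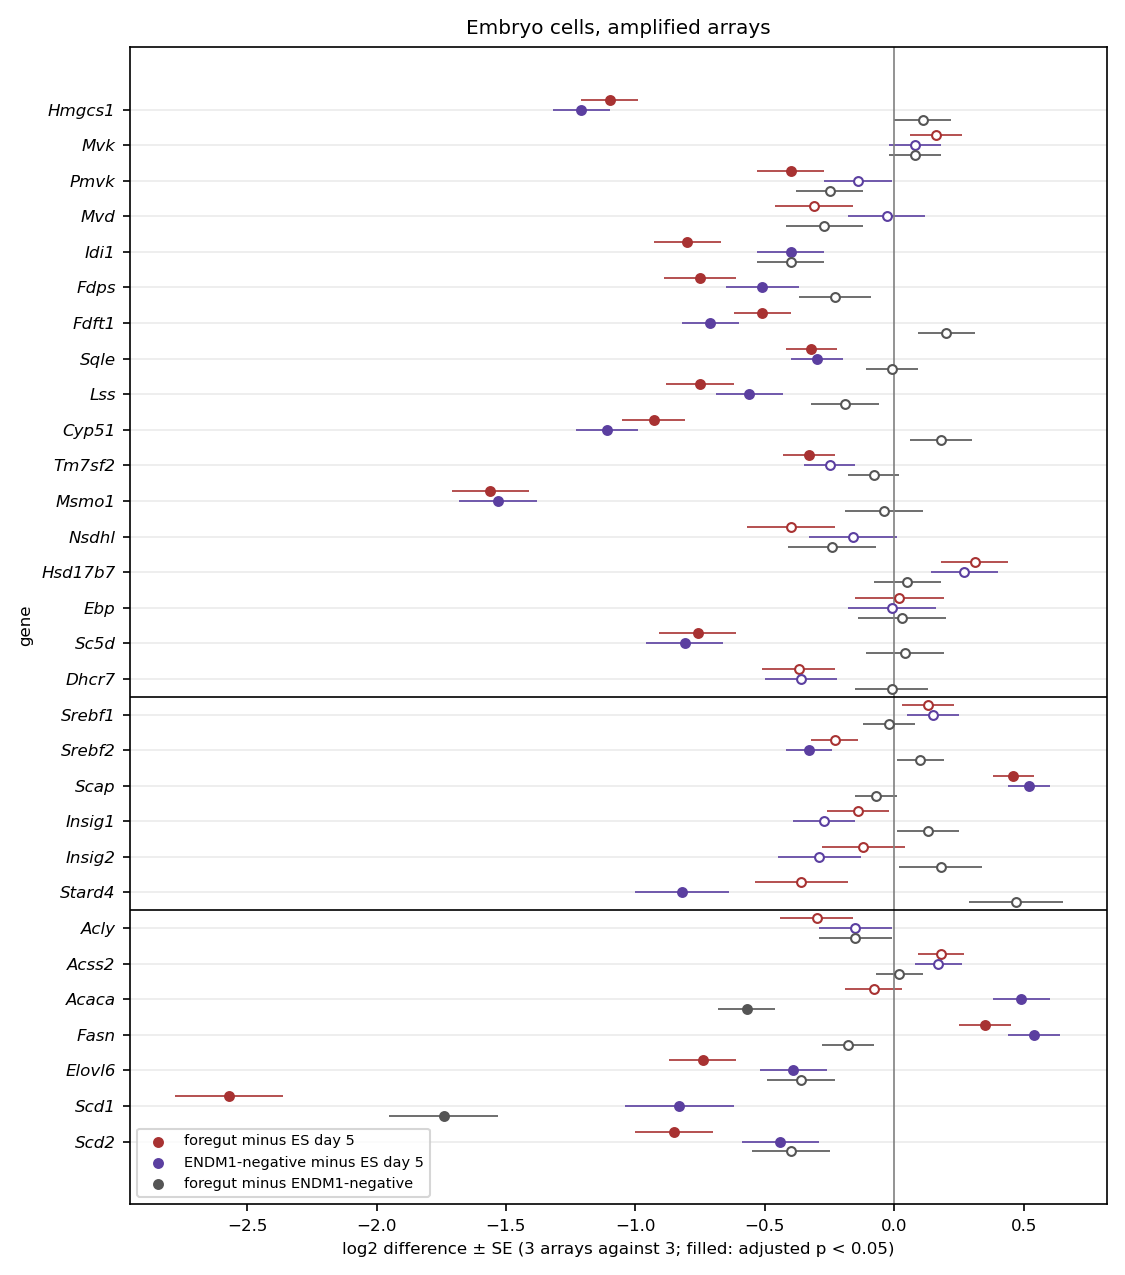
Log2 difference with the standard error of the fit for each of the 30 genes on amplified arrays: both embryo populations minus ES day 5, and the difference between the embryo populations; filled points were called at an adjusted p under 0.05. Scd1 lies at -2.57 and -1.74 in the comparisons of foregut, and Msmo1 at -1.56 and -1.53 against ES cells.

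The last comparison is between the 2 embryo populations, which share strain, kit and age. Only Scd1 and Acaca were called, both lower in foregut, and 8.14% of all genes were (3.71% higher and 4.43% lower). None of the 17 sterol enzymes was called between these populations, and their differences ranged from -0.40 to 0.20. Idi1 at -0.40 ± 0.13 (adjusted p = 0.0765) and Stard4 at 0.47 ± 0.18 (0.14) were among the genes whose arrays did not overlap but which were not called. At an unadjusted p under 0.05 limma counted 1 gene higher and 5 lower.

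Markers of other cell types differed between the embryo populations, both of which were gated as Epcam+, an epithelial surface marker that endothelial and blood cells generally lack. Of 15 visceral endoderm and yolk sac markers 14 were higher in foregut than in ENDM1-negative cells and 14 than in ES cells, with mean levels of 7.23 to 8.49 on the foregut arrays, 5.64 to 6.22 on the ENDM1-negative and 5.75 to 6.09 on the ES day 5 arrays. Afp, made by yolk sac and fetal liver, was at 7.96, 8.77 and 6.84 in foregut and at 4.97, 4.99 and 5.04 in ENDM1-negative cells. In ENDM1-negative cells 8 of 10 endothelial and 10 of 13 ectoderm markers were higher than in ES cells. Endothelial means were 6.07 to 6.55 against 5.04 to 5.15. There 4 of 8 blood and 3 of 11 heart mesoderm genes were higher too, and 1 gene of each of these lists was lower. Foregut had 3 of 8 blood genes higher than ES cells and 0 lower. Blood means were 6.17 to 6.42 in foregut and 5.88 to 6.34 in ENDM1-negative cells. Over all genes 16.5% were called higher and 9.76% lower in ENDM1-negative cells than in ES cells, and 14.7% and 9.42% in foregut. Cell cycle genes were higher than in ES cells in 9 of 19 cases in foregut and in 13 of 19 in ENDM1-negative cells. Definitive endoderm markers had mean levels of 8.66 to 8.82 in foregut and 7.39 to 7.55 in ENDM1-negative cells. The part of these markers' cell types in the differences of the lipid genes was not tested.

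Neighbouring pathways were taken from the lists named in the processing notes. Their counts at day 5 stand beside 18.9%, 23.2% and 21% of all genes called higher, and 19.7%, 24.8% and 19.5% called lower, in ES cells, ST5 and ST8. Genes of sterol uptake, efflux and storage rose in 5 of 15 cases in ES cells at day 5, 8 in ST5 and 10 in ST8, and fell in 2, 1 and 2, with median differences of 0.21, 0.52 and 0.53. Npc1, which exports cholesterol from lysosomes, rose by 1.54 ± 0.15, 2.04 ± 0.15 and 1.61 ± 0.15 (adjusted p = 4.77e-07, 1.27e-08 and 2.64e-07), and Lipa, the lysosomal cholesteryl ester hydrolase, by 1.13 ± 0.13 in ES cells (2.15e-06). Ch25h, the cholesterol 25-hydroxylase, fell in all 3 lines (by -0.75 ± 0.14, -0.88 ± 0.14 and -0.99 ± 0.14). Abca1, the cholesterol exporter, fell by -1.56 ± 0.15 in ST8 (adjusted p = 6.01e-07) and by -0.53 ± 0.15 in ES cells (0.011), and it was not called in ST5.

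Of 7 genes of SREBP processing, Erlin2, a partner of the Insig proteins, and Mbtps1, the protease that first cuts SREBP in the Golgi, rose in every line. Erlin2 rose by 0.79 ± 0.12, 1.17 ± 0.12 and 0.70 ± 0.12 and Mbtps1 by 0.46 ± 0.06, 0.54 ± 0.06 and 0.36 ± 0.06 in ES cells, ST5 and ST8. Of this list 3, 4 and 3 genes rose and 2, 1 and 1 fell (median differences -0.10, 0.28 and 0.01). Among 7 further sterol and isoprenoid genes 1, 3 and 3 rose and 2 fell in each line (medians 0.12, 0.06 and 0.02), with Dhdds, of dolichol synthesis, up and Lbr, a sterol reductase of the nuclear envelope, down in all 3 (0.34, 0.47 and 0.28; -0.23, -0.44 and -0.29).

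Of 22 other genes of fatty acid synthesis and storage 9, 11 and 9 rose and 7, 8 and 5 fell (medians 0.15, 0.15 and 0.18). Me1, the malic enzyme that supplies NADPH, rose by 1.21 ± 0.11, 1.59 ± 0.11 and 1.40 ± 0.11 (adjusted p = 3.93e-07, 1.13e-08 and 6.66e-08), and in foregut and ENDM1-negative cells it was below ES day 5 by -1.04 ± 0.15 and -1.62 ± 0.15. Acacb, the mitochondrial relative of Acaca, fell by -0.96 ± 0.09 in ES cells and by -0.73 ± 0.09 in ST8. Of 15 genes of fatty acid oxidation 3, 4 and 4 rose and 5 fell in each line (medians -0.15, -0.05 and -0.04), where the shares that rose were close to those over all genes. Cpt1a, which brings fatty acids into mitochondria, fell by -1.92 ± 0.32, -2.93 ± 0.32 and -1.84 ± 0.32 (adjusted p = 0.000146, 1.13e-06 and 0.000204), and Decr1 rose by 1.05 ± 0.08, 0.79 ± 0.08 and 0.90 ± 0.08. Between foregut and ES day 5, 3 of 15 uptake genes were higher and 2 lower, where 14.7% of all genes were called higher and 9.42% lower. Those lower were Vldlr, a lipoprotein receptor, at -1.26 ± 0.10 (adjusted p = 3.41e-06) and Npc1 at -0.66 ± 0.16 (0.00921).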

How the data were processed

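Gene expression was measured on Affymetrix Mouse Gene 1.0 ST arrays in 30 samples. The deposited values are log2 levels after RMA, per the submitters' processing notes; its version, and whether both labellings were normalized together, are not given in the sources used here. Of 35556 probe sets, 21789 named 1 gene in the annotation, which gave 19938 genes. With limma 3.58.1 in R 4.3.3, group means were estimated separately for the 18 unamplified (12 residual degrees of freedom) and the 12 amplified arrays (8), with moderated two-sided tests and Benjamini-Hochberg adjustment over all genes; calls were made at 0.05. Scripts were tested on simulated data. Motifs and figures used Python 3.11.15 and matplotlib 3.10.9.

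The members, gene lists and tests were chosen with earlier results of these data known. All members may be named. Values on every array are given for genes called in the same direction in all lines with a difference of at least 1 in any, for the 3 largest called rises and falls of a comparison and for a fixed set of regulators and enzymes; of other lists, the 2 largest called rises and falls. Lists were sterol uptake, efflux and storage, SREBP processing, other sterol and isoprenoid, other fatty acid synthesis, fatty acid oxidation, pluripotency, definitive endoderm, visceral endoderm, fibroblast, endothelium, blood, ectoderm, heart mesoderm and cell cycle. Alternatives were other scalings, fewer groups in the fit, no dim genes, mean of probe sets, another spread model, the replicate block and each array left out.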

Additional observations from a re-analysis of the deposited data

Results flagged for a closer look

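Mvd, the mevalonate diphosphate decarboxylase, changed differently from day 0 to day 5 in ST8 and in ST5, by a test of the difference itself. The response of ST8 minus that of ST5 was 0.47 (SE 0.11, limma adjusted p = 0.0372, 3 arrays in each of 4 groups). Mvd rose by 0.22 in ST8, where all 3 day 5 arrays were above all 3 day 0 arrays, and fell by 0.25 in ST5, where all 3 were below. This was the only call among the 30 genes in that comparison, where 2.17% of all genes were called, and it was lost in 12 of 20 alternatives: with 10 of the 12 arrays left out singly (adjusted p from 0.0592 to 0.104), with arrays shifted to a common median (0.0694) and with only the groups compared (0.072).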

How the results depend on the processing

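Of 93 calls of single genes, 57 held under every alternative run, 36 were lost under at least 1 and 0 turned sign. With arrays shifted to a common median, the count of called genes became 0 for ST8 against ES cells at day 0 and 0 for the response of ST8 minus that of ST5; that response count was 3 with a further quantile normalization, 2 without dim genes, 2 with an intensity trend and robust spread, and 0 with only the groups compared. The response of ST8 minus that of ES cells gave 2 without dim genes and 1 with the trend and robust spread. With only the groups compared, fewer residual degrees of freedom were left, and the counts were 1 and 2 for ST5 and ST8 against ES cells at day 0 and 0, 0 and 0 for ST5 against ES, ST8 against ES and ST8 against ST5 at day 5. With the replicate block, ST8 against ES cells at day 5 gave 0 calls in place of 1. Same-numbered deviations correlated between -0.648 and 0.505 there and between -0.121 and 0.013 for ES day 5 against day 0. They correlated between 0.087 and 0.164 for ST5 against ES cells at day 5 and between 0.022 and 0.178 for ST5 day 5 against day 0. The labels do not say whether same-numbered samples share more than a number. The block moved no other count by over 1.5 times. With ES day 5 replicate 1 and ST8 day 5 replicate 2 both left out, chosen after seeing the data, the counts were 21 for ES day 5 against day 0, 15, 18 and 12 for ST5 against ES, ST8 against ES and ST8 against ST5 at day 5, and 12, 17 and 5 for the responses of ST5 minus ES, ST8 minus ES and ST8 minus ST5. In ST8 against ST5 at day 5 the 6 genes called higher with all arrays kept their calls. Of the genes added there, Acaca was higher, and Acly, Ebp, Hsd17b7, Insig1 and Sc5d were lower in ST8. Leaving out each array in turn gave 9 to 18 calls for ES cells, 8 to 11 for ST5, 10 to 12 for ST8 and 6 to 13 for amplified ES cells; 0 to 15, 0 to 19 and 3 to 8 for the comparisons of lines at day 5 in the order above; 0 to 11, 0 to 14 and 0 to 4 for the responses; 0 for each comparison at day 0; and 12 to 16, 11 to 17 and 2 to 4 for foregut against ES, ENDM1-negative against ES and foregut against ENDM1-negative cells. The share of all genes called was not counted under these alternatives, and the causes were not tested.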
